A study of Mus musculus with 6 samples.

Results

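Zfp400 to Zfp999 make up a large share of the named mouse zinc finger genes, and many of them lie in rodent clusters of the KRAB type. They were taken from the deposited table by symbol, as Zfp followed by a number in that range. Of 236 such rows among 23281 genes, 185 had a mean of at least 100 reads over the 6 libraries and are described here as the members. The other 51 fell under that minimum, 16 of them with a mean of 50 to 100 reads and 18 with a mean under 10. The symbol Zfp935 stood on a pair of rows with different gene IDs, and both were members. Just inside the minimum were Zfp963, Zfp703 and Zfp775, with means of 111, 113 and 116 reads and half-lives, as defined below, of 48.7, 53.2 and 70.4 min. Just outside it were Zfp786, Zfp711 and Zfp618, with means of 99.0, 96.7 and 94.7 reads.

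C2H2 zinc finger proteins bind DNA through tandem fingers, each folded around a zinc ion held by cysteine and histidine residues. In many of them an amino-terminal KRAB box recruits TRIM28 (KAP1), which in turn brings SETDB1, HP1 proteins and histone deacetylases to lay down repressive histone H3 lysine 9 methylation. In mouse embryonic stem cells this pathway is known for silencing endogenous retroviruses and for keeping the DNA methylation of imprinted loci. KRAB zinc finger genes arise by local duplication and so sit in clusters of related copies. Mammalian zinc finger messenger RNAs as a class are known for short half-lives.

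The RNA came from nuclei of female mouse embryonic stem cells of a hybrid 129S x Cast background. In all 6 groups the 129S allele of Xist carried a TetOn promoter in place of its own and a Bgl stem-loop at the 3' end, and all cultures had 17.5 to 20 h of doxycycline (1 µg/ml) before 4 h in 500 µM 4-thiouridine (4sU) with doxycycline. The groups were washout for 0, 30, 60, 90, 120 and 150 min in medium with 50 mM uridine and doxycycline, except that the 0 min cells were not washed, with 1 library each. Cells without 4sU were not analysed here. In SLAM-seq, incorporated 4sU is alkylated and read as T-to-C (T>C) conversions, which separate RNA made during the labelling from older and newer RNA. The cells were pre-plated to remove feeder cells, and the labels do not say whether the line is a single clone.

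The libraries held 18558073 to 28535162 reads. All 8 stem cell markers were present, at a summed 2585 to 3037 CPM (reads scaled to library size) per library. Of 8 fibroblast feeder markers, 7 were above 0 in every library, at a summed 863 to 1200 CPM. Single stem cell markers had means of 110 to 615 CPM. Single feeder markers had means of 0.076 to 669 CPM, so much of the feeder sum came from 1 gene. The libraries did not lie in an even order of label: the pooled T>C rate of the members was 7.63, 3.77, 7.64, 3.10, 1.41 and 0.919% in the order of washout from 0 to 150 min. The labelled share of reads was higher at 60 than at 30 min in 159 of the 185 members, against 47.1% of all genes tested. The declines of all members and of the named ones were therefore also computed without the 30 and 60 min libraries and with their times exchanged. Which of these libraries departs was not tested.

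The finger sequences of 5 members show what the family shares and where it differs. Each of the sequences printed here is 1 complete finger of 78 bases with the linker to the next, from the longest coding sequence in GENCODE M21 (mm10, plus strand), with the codons of the zinc-binding cysteines (TGC or TGT) and histidines (CAT or CAC) in capitals. They come from 1 finger shared inside the chromosome 4 clusters (Zfp988, chr4:147332002-147332079), from the member with the second most reads (Zfp990, chr4:145537325-145537402), from the member with the most reads (Zfp568, chr7:30022892-30022969), from the member with the highest decay rate in the unweighted fit (Zfp574, chr7:25081052-25081129), and from the chromosome 7 cluster described below (Zfp553, chr7:127235527-127235604).
Zfp988: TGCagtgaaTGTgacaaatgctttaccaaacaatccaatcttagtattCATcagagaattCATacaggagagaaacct
Zfp990: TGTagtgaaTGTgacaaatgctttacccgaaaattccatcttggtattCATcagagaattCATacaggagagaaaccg
Zfp568: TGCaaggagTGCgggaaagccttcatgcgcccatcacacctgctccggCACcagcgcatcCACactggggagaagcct
Zfp574: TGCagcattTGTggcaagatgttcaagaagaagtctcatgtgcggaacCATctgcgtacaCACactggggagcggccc
Zfp553: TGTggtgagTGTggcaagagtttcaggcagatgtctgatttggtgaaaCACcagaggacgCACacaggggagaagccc

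The Zfp990 finger matched the Zfp988 finger at 70 of 78 bases, while those of Zfp568, Zfp574 and Zfp553 matched it at 45, 43 and 46 of 78. All 5 end in the codons of the conserved linker that joins neighbouring fingers. Over all members, 863 fingers of this canonical form were found in 141 genes, as 808 different sequences. Of these, 28 sequences occurred in at least 2 members, and for 19 of the 28 every holder lay in the distal chromosome 4 clusters. The printed Zfp988 finger occurred letter for letter in 5 members (Zfp534, Zfp986, Zfp987, Zfp988 and Zfp989), in 6 copies. Copies this alike bear on the measurement, because a read of 81 bases can match several genes: 26 members shared over 20% of their 81-base windows with another annotated gene, 12 shared over 50%, and 109 shared none.

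Label left the members quickly. Their median labelled share, the authors' posterior mean of the fraction of a gene's reads that came from labelled RNA, was 80.8, 55.8, 72.4, 40.8, 22.9 and 14.3% in the order of washout from 0 to 150 min. The medians over all 11462 genes tested were 46.8% at 0 min and 21.1% at 150 min, so the member median stood above that of all genes when labelling ended and below it when the washout ended. Single members ran between 38.3% and 98.9% at 0 min and between 1.93% and 45.7% at 150 min, and each of the 185 was lower at 150 than at 0 min. At 0 min 26 members were labelled in over 90% of their reads, and at 150 min 51 were under 10%.

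**Figure D1:**
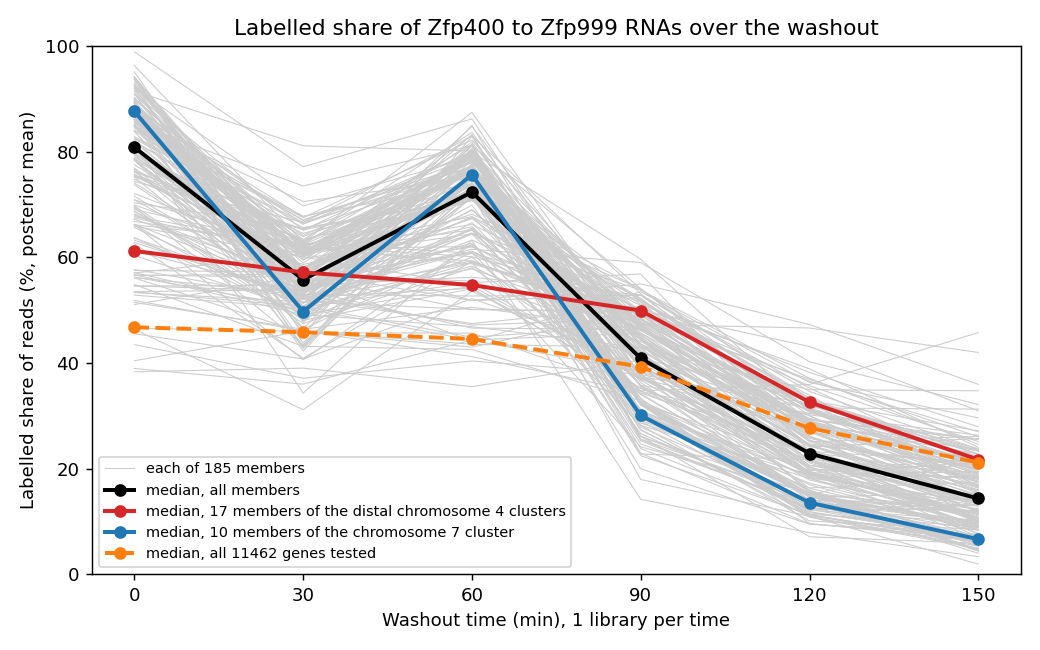
Labelled share of reads (%) against washout time (min), with 1 library per time; thin lines are the 185 members and thick lines are medians of the members, of the distal chromosome 4 and chromosome 7 clusters and of all genes tested. The member median starts at 80.8%, dips to 55.8% at 30 min and ends at 14.3%, whereas the median of all genes moves between 46.8% and 21.1%.

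A straight line was fitted to ln labelled share over time, its downward slope was taken as the decay rate, and the half-life as ln 2 divided by it. The share fell in 177 of the 185 members and rose in 0 (limma, Benjamini-Hochberg adjusted p from 5.12e-05 to 0.0326 among the called), where 52.3% of all genes tested fell and 1.19% rose. The median decay rate was 0.667 ± 0.149 per h (jackknife SE over the 6 libraries; interquartile range of the members 0.491 to 0.878), against 0.247 ± 0.092 per h over all genes. Among the 177 called members the median half-life was 60.0 ± 10.4 min, 89 had a half-life under 60 min, 80 had 60 to 120 min and 8 had over 120 min. A called half-life under 60 min was found for 11.3% of all genes. In the order of all genes tested, 82 members were among the fastest 10% and 176 were faster than the median gene. Of the 117 genes in the range Zfp1 to Zfp399 with the same read minimum, 113 fell and 1 rose, at a median of 0.719 per h. Because the RNA came from nuclei, export and decay cannot be told apart, and the p-values measure scatter of 6 single libraries around a line. The median half-life was 100.2 min when libraries were weighted by the posterior width (120 members called, where 2988 of 11462 genes fell). It was 51.9 to 67.0 min when any 1 library was left out. Without the 150 min library 156 members were called, where 3582 genes fell. Without the 30 and 60 min libraries 174 members were called at a median of 60.9 min, where 5392 genes fell. With their times exchanged 180 were called at 59.2 min, where 6242 genes fell. With labelled abundance (share times scaled reads) 164 were called at 63.1 min, where 5442 genes fell.

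The T>C rate, which does not pass through the authors' mixture model, gave the same direction. It fell in 185 of 185 members (limma, Benjamini-Hochberg adjusted p from 0.000153 to 0.0437), where 66.9% of all genes fell. The half-lives from it were shorter, with a median of 45.7 min and a range of 28.4 to 106 min. Across the 185 members the rates from both measures ranked alike (Spearman rho 0.96, a description over genes that share the 6 libraries).

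**Figure D2:**
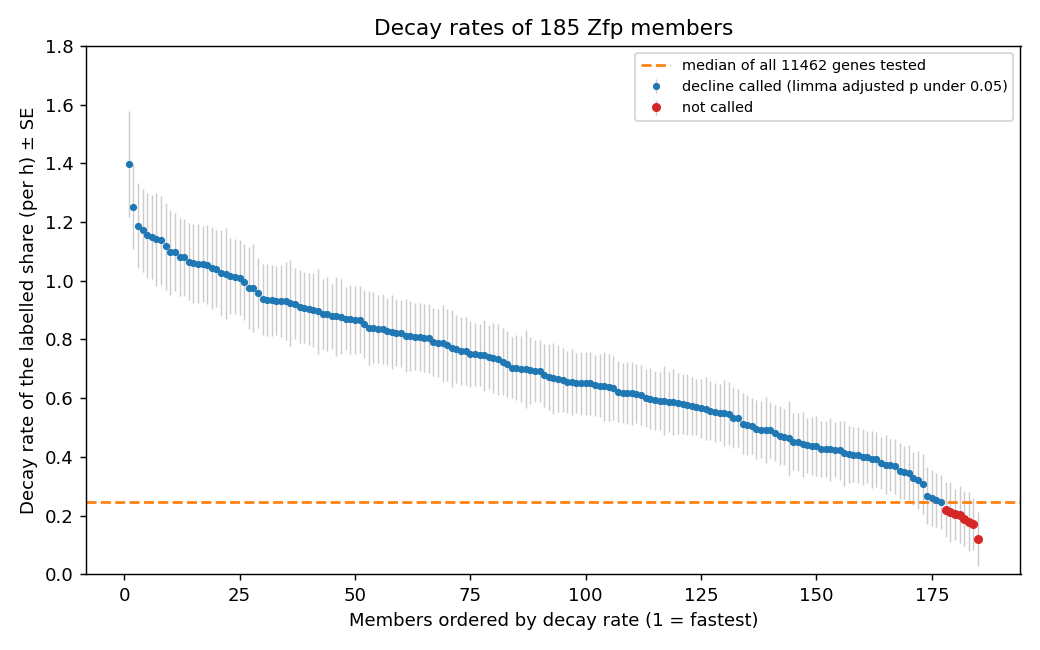
Decay rate of the labelled share (per h) with its SE for each of the 185 members, ordered from fastest (1) to slowest, with the median of all genes tested as a dashed line. The 177 members whose decline was called run down to 0.247 per h, and the 8 that were not called lie at or under 0.220 per h.

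Zfp574 (ENSMUSG00000045252; chr7:25072567-25083492, plus strand), a protein of 18 fingers with no KRAB stretch, had the highest decay rate of all members in the unweighted fit. From 0 to 150 min it had 86.1, 42.3, 75.3, 17.9, 11.0 and 1.93% of its reads labelled (posterior 5% to 95% range of the last 0.88 to 3.35%), from 644 to 915 reads per library. The decay rate was 1.40 ± 0.18 per h and the half-life 29.7 min (26.4 to 34.1 min at 1 SE to either side; limma, Benjamini-Hochberg adjusted p = 5.13e-05). With posterior weights its rate was 0.435 per h (95.5 min, adjusted p = 0.051, not called), below the 4 highest, those of Zfp459 (0.593 per h), Zfp672 (0.589), Zfp949 (0.546) and Zfp553 (0.543); Zfp459 and Zfp949 are named after their values were seen. With labelled abundance (share times scaled reads) Zfp750 (1.35 per h) and Zfp870 (1.29) were above its 1.26. Zfp672, on chromosome 11, came next in the unweighted fit at 33.2 min, with 81.8, 34.3, 63.2, 14.2, 7.87 and 3.33% labelled from 0 to 150 min. In both genes the last 3 libraries were the 3 lowest, and the 60 min library stood above the 30 min one.

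The other members among the 8 shortest half-lives all carried a KRAB stretch and 8 to 10 fingers. They were Zfp599 (35.0 min), Zfp870 (35.5 min), Zfp954 (36.0 min), Zfp772 (36.2 min), Zfp689 (36.5 min) and Zfp867 (36.6 min), a spread smaller than the SE of any of them, so their order does not separate them. With posterior weights Zfp599 was still called, at 84.7 min, and the other 5 were not (111 to 126 min, limma Benjamini-Hochberg adjusted p 0.0739 to 0.126). Zfp954 and Zfp772 lie close together on chromosome 7, at chr7:7114690-7121488 and chr7:7202117-7209998. Their labelled shares at 150 min were 4.44% and 4.86%. Zfp599 was labelled in 93.7% of reads at 0 min and 5.86% at 150 min, and Zfp870 in 94.0% and 4.95%.

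The 8 longest called half-lives included those of Zfp988 (121 min) and Zfp989 (127 min) of the chromosome 4 clusters. The others were those of Zfp609 (130 min), Zfp652 (135 min), Zfp512 (155 min), Zfp423 (160 min), Zfp664 (163 min) and Zfp706 (169 min), none of which carried a KRAB stretch. Zfp609, a partner of the cohesin loader NIPBL, stayed between 52.8 and 56.2% labelled from 0 to 90 min and then had 34.6% at 120 min and 23.7% at 150 min. Zfp423, a cofactor of BMP-activated SMADs and of EBF factors, had 57.1, 49.8, 59.0, 50.0, 31.5 and 31.3% from 0 to 150 min. Zfp706, a small protein that represses Klf4 and helps embryonic stem cells leave self-renewal, had 51.5% at 0 min and 27.1% at 150 min. In all 3 genes the libraries up to 90 min showed no steady fall, and the low values were those at 120 and 150 min. None of these 8 calls held without the 150 min library (Benjamini-Hochberg adjusted p 0.0599 to 0.461 in limma), and 19.3% of the exonic bases of Zfp652 overlap genes on the other strand.

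The decline of the labelled share was not called in 8 members. Zfp598, which in human cells marks collided ribosomes by ubiquitin ligation, had 46.6, 45.9, 43.0, 50.0, 43.1 and 30.9% from 0 to 150 min and the slowest estimate, 0.119 ± 0.092 per h (limma, Benjamini-Hochberg adjusted p = 0.296). Zfp593, whose yeast relative works in maturation of the large ribosomal subunit, had 56.7% at 0 min and 34.7% at 150 min (adjusted p = 0.0567 in limma). For Zfp593, 77.9% of the exonic bases overlap E130218I03Rik on the other strand, and how the authors' counting treated strand is unknown. The others were Zfp511, Zfp523, Zfp692 and Zfp458, and Zfp978 and Zfp979 of the chromosome 4 clusters, with adjusted p from 0.0588 to 0.148. Zfp458 was higher in the last library than in the 2 before it, with 34.7% at 90 min, 35.9% at 120 min and 45.7% at 150 min, the last from 83 reads. In all 8 the T>C rate did fall (limma, Benjamini-Hochberg adjusted p from 0.0095 to 0.0437), where 66.9% of all genes fell.

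The 6 members known for silencing retroelements and imprints had half-lives of 38.5 to 76.0 min. Zfp819, a TRIM28 partner linked to genome integrity in stem cells, had the shortest half-life of the 6 at 38.5 min, with a labelled share of 92.5, 57.9, 76.3, 32.1, 11.0 and 6.79% from 0 to 150 min. Zfp708, which binds the RMER19B class of retroelements, had 47.9 min, but all of its 81-base windows also occur in the overlapping annotation Gm28557. Zfp809, which silences murine leukaemia virus through the primer binding site, had 60.0 min, with 86.6% at 0 min and 15.1% at 150 min. Zfp568, which silences a placental promoter of Igf2, had 65.6 min with 85.2, 73.5, 81.1, 54.1, 28.9 and 17.6%. Zfp932, a repressor of endogenous retroviruses that shares 36.4% of its windows with its paralogue Gm15446, had 73.6 min. Zfp445, which maintains imprints together with ZFP57, had 76.0 min with 82.6, 66.3, 79.9, 59.6, 30.9 and 20.4%. All 6 declines were called (largest limma Benjamini-Hochberg adjusted p 0.00057, for Zfp445), where 52.3% of all genes and 177 of the 185 members fell. With libraries weighted by the posterior width, Zfp445 was not called (0.275 per h, 151 min, adjusted p = 0.0918 in limma) and the other 5 were. Of all 11462 genes, 2988 fell with these weights. The ranges at 1 SE of Zfp809 (52.0 to 70.7 min), Zfp568 (56.1 to 79.2 min), Zfp932 (62.4 to 89.6 min) and Zfp445 (63.4 to 94.8 min) overlap those of their neighbours in this order, while that of Zfp819 (34.4 to 43.8 min) lies below these 4 and touches that of Zfp708 (42.2 to 55.4 min).

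Developmental factors also ranged widely. Zfp703, a corepressor of the NET family, had a half-life of 53.2 min at a mean of only 113 reads, Zfp608 had 54.3 min, and Zfp827, which in human cells brings the NuRD complex to telomeres, had 59.1 min. Zfp462, a chromatin factor that helps keep embryonic stem cells from differentiating, had 81.1 min, with 70.3, 65.5, 70.9, 51.9, 31.2 and 19.4% labelled from 0 to 150 min. Its 2706 to 3860 reads per library make it one of the better measured members. The paralogues Zfp608 and Zfp609 had 54.3 min (47.1 to 63.9 at 1 SE) and 130 min (99.1 to 188). With posterior weights they had 104 and 223 min, and Zfp609 was not called. The difference between them was not tested. Zfp711, Zfp503, Zfp521 and Zfp536 were under the read minimum, with means of 96.7, 93.7, 43.0 and 33.0 reads, and were not tested.

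Among the members tied to RNA and ribosomes, Zfp830, needed in early mouse embryos and linked to splicing, was the fastest at 45.1 min. Zfp622, whose yeast relative acts late in maturation of the large ribosomal subunit, had 61.9 min with 79.5% labelled at 0 min and 14.3% at 150 min. Zfp638, whose human form guides the HUSH complex to unintegrated retroviral DNA, had 102 min (82.7 to 133 at 1 SE), with 63.2, 52.0, 57.8, 46.2, 28.5 and 22.8% from 0 to 150 min. These 3 declines were called (largest limma Benjamini-Hochberg adjusted p 0.00195), where 52.3% of all genes fell. Those of Zfp593 and Zfp598 were not, as given above.

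Neither the presence of a KRAB stretch nor the number of fingers ordered the members. The 112 members with a KRAB stretch had a median decay rate of 0.653 ± 0.126 per h (jackknife SE) with 109 falling, and the 73 without had 0.678 ± 0.180 per h with 68 falling. The medians were 0.651 per h for 25 members with 0 to 3 fingers, 0.698 for 27 with 4 to 7, 0.651 for 72 with 8 to 12 and 0.695 for 61 with 13 or more. In the group with 0 to 3 fingers 20 of 25 fell, and in that with 8 to 12 fingers 72 of 72 did, where 52.3% of all genes fell. Over the 185 members the Spearman correlation with the decay rate was 0.05 for finger number, 0.06 for coding length, 0.03 for the length of the 3' UTR and -0.02 for its number of ATTTA pentamers. Gene span gave -0.47 (-0.43 over the 168 members outside the chromosome 4 clusters) and exon number -0.31. The median rate was 0.878 per h for 44 members spanning under 12 kb, 0.710 for 96 spanning 12 to 30 kb and 0.509 for 45 spanning 30 kb or more. These are descriptions over genes that share libraries, and the longer genes also had more reads, with a median of 901 against 375 in the shortest class.

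Medians by location in the genome spread wider than those of these classes. Of the 185, 47 lie on chromosome 7, 24 on chromosome 17, 20 on chromosome 4, 16 on chromosome 8 and 15 on chromosome 13. Zinc finger genes within 250 kb of each other were joined into clusters, and 11 clusters held at least 4 members, at most 11. Each is smaller than any of the classes above. Whether the wider spread of their medians goes beyond their small size was not tested. Their median decay rates ran from 0.994 ± 0.222 per h in a chromosome 7 cluster (chr7:127233061-127885996) to 0.373 ± 0.088 per h in a distal chromosome 4 cluster (chr4:146971976-147848366). The 91 members in clusters of at least 5 zinc finger genes had a median of 0.698 ± 0.145 per h. The 94 others had 0.659 ± 0.151 per h (jackknife SE). Both medians come from the same libraries, so these SEs do not measure their difference, which was not tested.

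**Figure D3:**
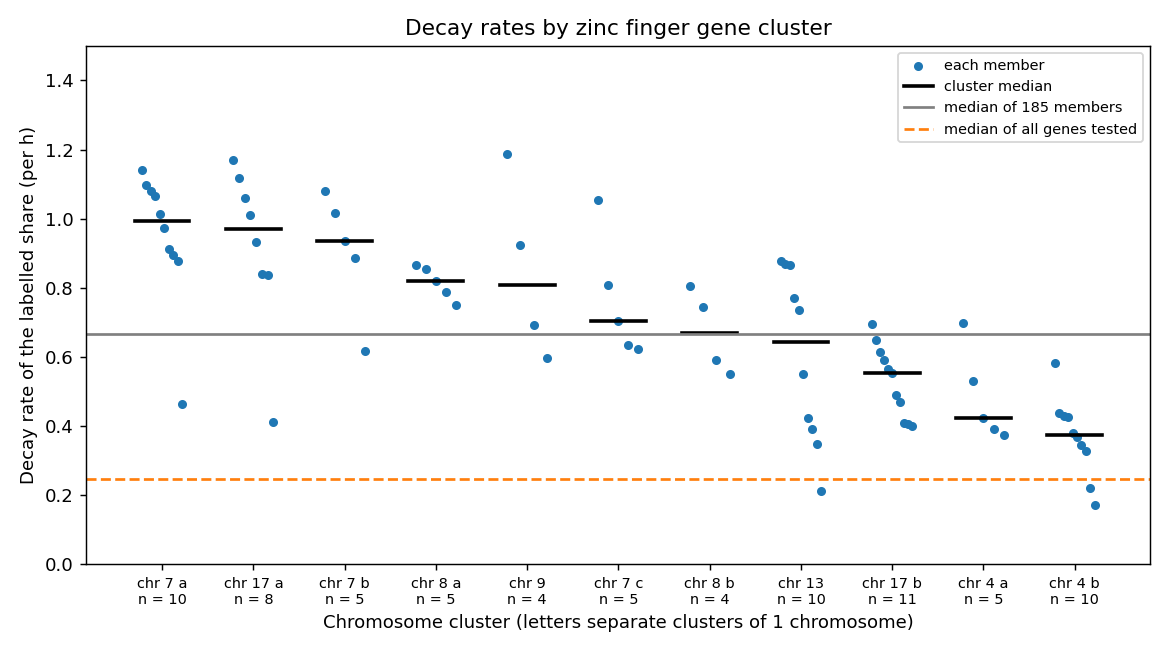
Decay rate of the labelled share (per h) for each member of the 11 clusters with at least 4 members, ordered by cluster median (black bars); letters separate clusters on 1 chromosome, the grey line is the median of the 185 members and the dashed line that of all genes tested. The chromosome 7 cluster at the left has a median of 0.994 per h and the distal chromosome 4 cluster at the right one of 0.373 per h.

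The lowest cluster medians were those of distal chromosome 4, a rodent KRAB cluster whose deletion in mouse embryonic stem cells is known to release transposable elements. It was singled out after its values had been seen, so its rate is given as a description. Its 17 members, all with a KRAB stretch and all within chr4:145510759-147848366, had median labelled shares of 61.2, 57.1, 54.7, 49.9, 32.6 and 21.7% from 0 to 150 min. The 168 other members had 82.3% at 0 min and 13.4% at 150 min. The distal chromosome 4 members were less labelled at the start and more labelled at the end. Their share at 60 min was above that at 30 min in 3 of 17, against 156 of the 168 others and 47.1% of all genes tested. Their median decay rate was 0.391 ± 0.127 per h, or 106 min, against 0.704 ± 0.134 per h, or 59.1 min, for the others. Of the 17 declines 15 were called, where 52.3% of all genes fell. With posterior weights 11 of the 17 were called, with labelled abundance 7, and without the 150 min library 5. Over all 185 members these counts were 120, 164 and 156. Of all 11462 genes tested, 2988, 5442 and 3582 fell under the same settings.

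Within this group Zfp986 (59.5 min), Zfp933 (71.4 min) and Zfp990 (78.3 min) were the fastest, and Zfp979 (189 min) and Zfp978 (243 min) the slowest and not called. Zfp990 (ENSMUSG00000078503) had 70.9, 61.6, 62.0, 48.4, 28.6 and 18.4% labelled from 0 to 150 min, and its rate was 0.531 ± 0.099 per h. Zfp979 (ENSMUSG00000066000) had 51.0, 56.5, 44.0, 53.5, 36.3 and 29.6%, and its rate was 0.220 ± 0.094 per h (limma, Benjamini-Hochberg adjusted p = 0.0588). Both were well counted, with 4342 and 4225 reads in their lowest libraries. The remaining 12 members lay between 84.7 min (Zfp992) and 127 min (Zfp989): Zfp985, Zfp534, Zfp984 and Zfp987 from 95.2 to 98.5 min, Zfp980, Zfp991, Zfp600, Zfp982, Zfp981 and Zfp988 from 106 to 121 min. Their single ranges at 1 SE overlap.

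Shared sequence touches this group most, since the median share of 81-base windows found in another gene was 49.5% in it and 0 in the members outside it. The 6 of its members with under 30% shared windows (Zfp990, Zfp985, Zfp982, Zfp933, Zfp979 and Zfp981) had a median of 0.402 per h, and the 11 with more had 0.391 per h. The median slope of total reads was 0.21 log2 units per h in the group and 0.10 in the other members, and edgeR called a slope in none of them. With labelled abundance in place of the share, the median of the group was 0.244 per h, against 0.624 over all members and 0.232 over all genes. With the T>C rate it was 0.690 per h, against 0.910 over all members and 0.512 over all genes. All 17 of these declines were called, where 66.9% of all genes fell.

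The cluster with the highest median as reported was the chromosome 7 one at chr7:127233061-127885996, also singled out after its values had been seen. Its 10 members, 4 of them with a KRAB stretch and at a median of 0% shared windows, had median labelled shares of 87.6, 49.7, 75.6, 30.0, 13.5 and 6.64% from 0 to 150 min. Their declines were all called, where 52.3% of all genes fell, at a median of 0.994 ± 0.222 per h, or 41.8 min. Zfp689 (36.5 min), Zfp764 (37.9 min), Zfp747 (38.5 min), Zfp553 (39.1 min), Zfp668 (41.0 min) and Zfp768 (42.7 min) were the fastest. Zfp646 (45.6 min), Zfp629 (46.4 min) and Zfp688 (47.3 min) followed within their errors. Zfp771 stood apart at 89.7 min (70.3 to 124 at 1 SE), with only 46.4% labelled at 0 min and 88 to 176 reads per library. The ends of Zfp668 and Zfp646 overlap on opposite strands, over 9.0% of the exonic bases of Zfp668. Of those of Zfp646, 7.9% overlap Zfp668 or Prss53. With each library left out in turn the group median stayed between 0.826 and 1.15 per h, and that of distal chromosome 4 between 0.300 and 0.494 per h. With posterior weights they were 0.385 and 0.284 per h, against 0.371 per h for all members. Then 6 of the 10 chromosome 7 members were not called (Zfp629, Zfp688, Zfp689, Zfp764, Zfp768 and Zfp771), where 2988 of 11462 genes fell. A chromosome 17 cluster (chr17:32765496-33631779) was then higher, at 0.409 per h, as it was with labelled abundance (0.970 per h, against 0.945 for the chromosome 7 cluster). The difference between the groups was not tested, because the values chose them.

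Zfp553 in the fast cluster and Zfp979 in the slow one also differ in their promoters, which are printed because their clusters lie at opposite ends of the range. Both windows run from 250 bases before to 50 bases after the start of the gene (RefSeq, GRCm38.p6), with the dinucleotide CG in capitals. CG reads the same on both strands and was counted once per occurrence.
Zfp553, chr7:127232811-127233110, plus strand: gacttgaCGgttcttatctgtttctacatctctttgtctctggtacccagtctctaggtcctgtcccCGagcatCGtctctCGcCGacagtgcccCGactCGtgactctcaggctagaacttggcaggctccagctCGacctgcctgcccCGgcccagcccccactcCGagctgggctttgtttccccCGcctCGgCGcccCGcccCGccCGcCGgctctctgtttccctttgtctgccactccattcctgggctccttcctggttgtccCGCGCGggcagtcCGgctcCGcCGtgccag
Zfp979, chr4:147642459-147642758, minus strand: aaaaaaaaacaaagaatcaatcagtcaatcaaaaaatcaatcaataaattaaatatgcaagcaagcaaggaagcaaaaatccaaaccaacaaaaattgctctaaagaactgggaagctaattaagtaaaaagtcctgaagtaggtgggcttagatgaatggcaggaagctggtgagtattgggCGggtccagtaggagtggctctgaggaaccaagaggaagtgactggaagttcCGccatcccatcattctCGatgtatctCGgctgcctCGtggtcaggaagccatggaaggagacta

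The Zfp553 window held 23 CG dinucleotides and the Zfp979 window 5. Of all 32851 RefSeq promoters of this length, 21.5% held at least 23 and 62.0% at least 5. RefSeq windows were found for 150 of the 185 members (183 promoters), with a median of 13 CG, against 7 over all promoters. The median was 20.5 in 12 promoters of the chromosome 7 cluster and 4.5 in 14 promoters of the distal chromosome 4 clusters. Over the 150 members the CG count and the decay rate had a Spearman correlation of 0.15, and 0.03 over the 139 outside distal chromosome 4, so the count did not order the members beyond that cluster.

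The cluster with the most members lies on chromosome 17 (chr17:21567008-22456689). All 11 members carry a KRAB stretch and all 11 declines were called, where 52.3% of all genes fell. Their median rate was 0.552 ± 0.106 per h, or 75.3 min. Zfp994 was the fastest at 59.9 min with 74.1, 53.9, 68.9, 42.0, 19.2 and 13.4% labelled from 0 to 150 min. Zfp943 (64.0 min), Zfp948 (67.6 min), Zfp944 (70.2 min), Zfp760 (73.7 min) and Zfp947 (75.3 min) followed. The slower side held Zfp758 (84.8 min), Zfp942 (88.8 min), Zfp820 (102 min), Zfp995 (102 min) and Zfp946 (104 min). Zfp995 began at 84.9% and ended at 27.9%, and Zfp948 began at 85.6% and ended at 20.6%. No member here shared over 9% of its windows with another gene, and the highest was Zfp994 at 8.5%. A second chromosome 17 cluster (chr17:32765496-33631779, 8 members, all called) had a median of 0.971 ± 0.168 per h. The difference between these clusters was not tested. With posterior weights 1 of the 11 (Zfp760) and 4 of the 8 were not called, where 2988 of 11462 genes fell.

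Label uptake gave a second view from the 0 min library alone. The half-life that would give the share seen at 0 min after 4 h of labelling at steady state had a median of 101 min over the members (37.0 to 344 min), against 264 min over all genes tested. It was longer than the washout half-life in 171 of the 177 called members. Fitted without the 0 min library, the washout rate and the uptake half-life had a Spearman correlation of -0.65 over the 185 members, so members that filled with label sooner also lost it sooner. Both values pass through the authors' fraction.

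No change in total reads was called by the main test while label was lost. Of the 185, 0 were called by edgeR's quasi-likelihood test (Benjamini-Hochberg adjusted p under 0.05), where 0.0% of the 15743 genes tested were, and 52 had an unadjusted p under 0.05, against 21.7% of all genes. The slope was positive in 147 of 185, against 48.9% of all genes, with a median of 0.10 log2 units per h. These shares of all genes include genes under the read minimum of the members. Over the 11462 genes at that minimum and tested for the labelled share, the slope was positive in 52.7%. Of these, 2762 had an unadjusted edgeR p under 0.05. DESeq2 called 1 member rising, Zfp672, and 2 falling, Zfp688 and Zfp750, where it called 2.27% of genes rising and 2.51% falling. In these bulk libraries fewer cells of a type and less RNA per cell cannot be told apart. The count of calls rested on the 60 min library. Without it edgeR called 15 members rising and 2 falling, where 778 of 15383 genes rose and 635 fell. After a swap of the times of the 30 and 60 min libraries, 39 members were called rising and 2 falling. Over all 15743 genes tested, the swap gave 1590 rising and 1294 falling. Whether the members differ from all genes in these counts was not tested.

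Zfp750, a factor of epidermal differentiation, had the steepest negative slope. It had 56.9, 51.4, 67.8, 42.9, 15.9 and 11.4 CPM from 0 to 150 min, a slope of -0.97 log2 units per h (edgeR, unadjusted p = 0.00037, Benjamini-Hochberg adjusted p = 0.0903). Its last 2 libraries lay far under the first 4, and the share of labelled reads was 96.3% in the first library and 16.7% in the last. Zfp688 had 18.5, 18.4, 24.0, 15.2, 9.49 and 9.08 CPM and a slope of -0.50 (adjusted p = 0.103), and Zfp707 a slope of -0.26 (adjusted p = 0.178, edgeR). The lowest p-values for positive slopes were those of Zfp672 (0.27 log2 units per h, adjusted p = 0.0952), Zfp708 (0.27, adjusted p = 0.115) and Zfp989 (0.31, adjusted p = 0.12, edgeR). Zfp672 had 19.5, 18.8, 22.5, 24.0, 28.7 and 29.2 CPM, so its reads were highest in the last 2 libraries, where its labelled share was lowest.

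**Figure D4:**
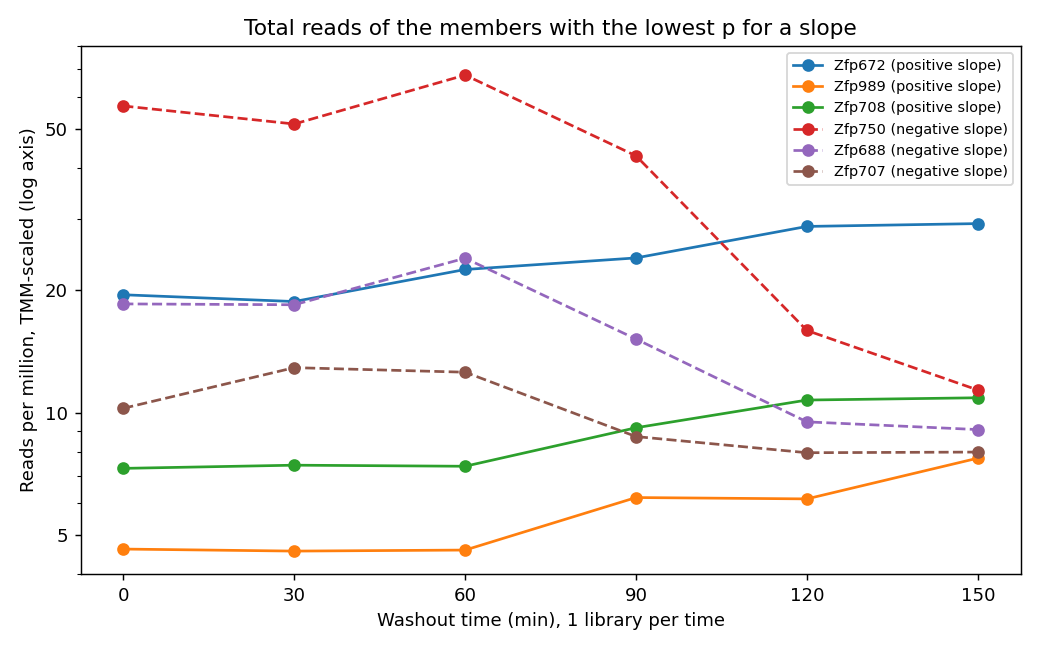
Total reads (CPM, TMM-scaled, log axis) against washout time (min) for the 3 members with the lowest p for a positive slope (solid) and for a negative slope (dashed), with 1 library per time. Zfp750 lies at 56.9 at 0 min and 11.4 at 150 min, and Zfp672 at 19.5 and 29.2.

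Per length, the members had means of 1.10 to 94.6 CPM per kb of the length in the table, with a median of 5.83. The highest levels per length were those of Zfp979 (94.6 CPM per kb), Zfp990 (88.0), Zfp978 (40.4) and Zfp568 (40.0), so 3 of the first 4 lie in the distal chromosome 4 clusters, whose 17 members held 17.1% of all member reads. By reads alone the order was Zfp568 (a mean of 6409 reads), Zfp990 (6192), Zfp979 (5696) and Zfp638 (5599).

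The members had a higher median decay rate than a list of 24 genes of the TRIM28 and H3K9 methylation pathway. Their rate was also above that of all genes tested. In the list the labelled share fell in 11 and rose in 0 (limma), where 52.3% of all genes fell. The median rate was 0.667 ± 0.149 per h in the members, 0.171 ± 0.085 in the list and 0.247 ± 0.092 over all genes (jackknife SE). The count of 11 was 7 with posterior weights, 7 with labelled abundance and 6 without the 150 min library. Over all 11462 genes these settings gave 2988, 5442 and 3582 falling, in place of 5996. Trim28, the shared corepressor, had 34.1, 37.9, 29.1, 38.5, 32.0 and 26.7% labelled from 0 to 150 min and no called decline (Benjamini-Hochberg adjusted p = 0.468). Cbx5 (HP1 alpha), Dnmt1, the maintenance DNA methyltransferase, and Chd4 of the NuRD complex were not called either. Among those that fell, 2810474O19Rik (also named Resf1), Atf7ip and Smarcad1 had half-lives of 65.0, 65.8 and 67.5 min, near the member median of 60.0 min. Daxx (74.0 min), Fam208a of the HUSH complex (77.3 min), Morc3 (85.4 min), Ehmt1 and Mphosph8 (both 103 min), the histone methyltransferase gene Setdb1 (114 min), Rif1 (119 min) and Atrx (181 min) followed. Setdb1 had 54.3, 52.2, 48.0, 40.8, 30.2 and 21.8% from 0 to 150 min. No test of the members against this list was made.

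**Figure D5:**
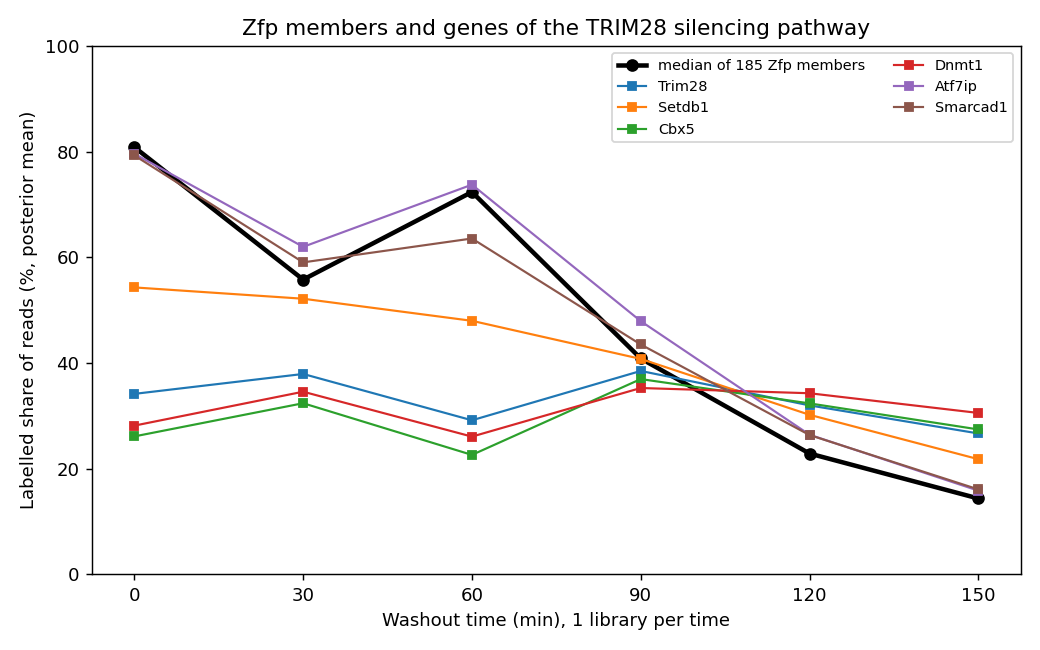
Labelled share of reads (%) against washout time (min) for the median of the 185 Zfp members (black) and 6 genes of the TRIM28 silencing pathway, with 1 library per time. The member median ends at 14.3%, close to Atf7ip and Smarcad1, while Trim28, Cbx5 and Dnmt1 start under 35% and end between 26.7 and 30.5%.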

How the data were processed

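Nuclear RNA was measured by SLAM-seq in 6 libraries, 1 per washout time. The submitters' processing notes name STAR 2.5.2b and mm10. Which program, annotation release and strand setting gave the per-gene table is not stated in any label or header at hand. Per the file headers, the authors deposited raw read counts per gene, the labelled fraction of reads (posterior mean, mode and quantiles), the posterior's shape parameters as scores, and T>C conversions over covered T positions, a coverage signal printed with 4 significant digits. The scores were not analysed. Column names carry a number or none, and washout times were assigned by matching it to the titles without their shared ending, so the times rest on that reading.

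All genes at or over the read minimum (100 on average) and with a fraction above 0 in every library were fitted together. limma 3.58.1 tested the slope on time of ln labelled fraction and of ln T>C rate (4 residual degrees of freedom), and edgeR 4.0.16 (quasi-likelihood, TMM, filterByExpr) that of counts, with Benjamini-Hochberg adjustment over all genes and a threshold of 0.05. DESeq2 1.42.0 was an alternative. Jackknife SEs leave out each library in turn. The fits were tested on simulated data. Fingers, KRAB stretches (at least 5 of 7 letters of a pattern), clusters and 81-base shared windows came from GENCODE M21, which held 23223 of the 23281 gene IDs and all 236 of the family, and promoters came from RefSeq. The design named RefSeq proteins for fingers and KRAB stretches, and translated GENCODE coding sequences were used instead. Members and lists were chosen with earlier results of these data known. Named members were the 8 shortest and 8 longest called half-lives, all not called, the 4 with most reads, the 3 nearest the read minimum on each side, the 3 lowest p for reads in each direction, listed members of known role and the largest cluster. The clusters of chromosomes 4 and 7 were added after their values were seen. Exonic overlap with the other strand was found for 42 members, over 20% in 6.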

Additional observations from a re-analysis of the deposited data

How the results depend on the processing

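The median half-life of called members was 32.0 min on the logit scale, 100.2 min with posterior weights and 45.7 min from the T>C rate, against 60.0 min as reported; the logit slope and the T>C rate are other quantities by construction. Posterior weights gave 2988 genes falling and labelled abundance 5442, in place of 5996. For the list of 24 KRAB cofactor genes, posterior weights and labelled abundance each gave 7 falling in place of 11, and leaving out each library gave 6 to 12. Leaving out each library gave 3582 to 6335 genes falling for the labelled share and 2712 to 9236 for the T>C rate, both lowest without the 150 min library. For total reads, edgeR without a filter on low counts called 2 members falling and 174 genes rising and 225 falling; exchanging the 30 and 60 min times gave 39 members rising and 2 falling and 1590 genes rising and 1294 falling; DESeq2 gave 1 and 2 members and 309 and 341 genes. Leaving out each library gave 0 to 15 members rising, 0 to 2 falling, 0 to 778 genes rising and 0 to 635 falling, the highest without the 60 min library. The cause was not tested.

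Over 1164 recomputed decay rates of 74 named members, none changed direction, 1072 kept their side of the threshold, 71 no longer passed it and 21 newly passed it. The alternatives for KRAB patterns, cluster distance, posterior mode, read minimum and shared sequence (152 of 159 members with at most 20% shared windows fell; chosen after seeing the data) kept the counts and medians within their errors. No paired analysis was possible because no washout time had a second library. With 73 reads in the lowest member and library, single shares of low members are imprecise, and posterior ranges cover counting error only.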
